A study of Homo sapiens with 9 samples.

Results

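The genes of the proteasome, the cell's main protease for ubiquitin-tagged proteins, were followed in HepG2 cells, an established human hepatocellular carcinoma line, after exposure to the flame retardant and plasticiser tris(2-butoxyethyl) phosphate (TBOEP). Members were all features whose name is PSM followed by a letter from A to G and a number, 46 of the 57773 features in the count files. One of the 46, PSMB11, had no read in any library, and the other 45 passed the filter on low counts. The name rule leaves out the alpha-ring genes PSMA1 and PSMA2, which the files split into the numbered features PSMA1_1, PSMA1_2, PSMA2_1 and PSMA2_2. The rule reads names only, but it was set with earlier results of these data known.

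Cells had received 125 µM TBOEP, 2.5 µM TBOEP or no TBOEP for 72 h. All 3 groups carried 0.1% DMSO as the solvent and all were of one line kept under 25 passages, with no genetic change named in the labels. Each group held 3 separately seeded, treated and sequenced cell populations, and the submitters describe both concentrations as free of cytotoxicity. Poly(A) RNA was sequenced, and each library held 2480964 to 11885877 reads in genes. Levels are given as CPM, gene reads scaled by TMM to a common depth, and as RPKM where genes are compared with each other. RPKM counts exon reads only and divides by exon length, while CPM counts all reads of a gene, introns included, so the scales differ most for genes with many intronic reads. A gene was called higher or lower at an adjusted p under 0.05 in edgeR's quasi-likelihood test of all 12901 genes that passed the filter (Benjamini-Hochberg adjustment).

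The 20S core particle is a barrel of stacked rings. Outer rings of alpha subunits (PSMA genes) form the gate and inner rings of beta subunits (PSMB genes) hold the catalytic sites. The 19S regulatory particle caps the barrel: its base contains a ring of ATPases (PSMC genes) that unfold substrates, and its lid (most PSMD genes) deubiquitinates them. Interferons replace the constitutive catalytic subunits with inducible ones to form the immunoproteasome, and alternative caps (PSME genes) bind the same barrel. In liver cells, as in others, the transcription factor NFE2L1 raises proteasome genes together when the proteasome is inhibited, through antioxidant response elements.

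The labelled cell type was checked against markers. Of 8 hepatocyte markers all had reads, with a summed level of 64810 to 88110 CPM in DMSO, 53010 to 65400 CPM at 2.5 µM and 38040 to 44850 CPM at 125 µM. The summed level was lowest at 125 µM, where 6 of the 8 were lower than in DMSO, against 19.9% of all tested genes. At 2.5 µM 2 of the 8 were lower (AFP and APOB), 1 was higher (TTR) and 5 did not pass. Of 10 blood and immune cell markers PTPRC, CD3E, MS4A1 and HBB had no read, and the list summed to 4.11 to 7.92 CPM in DMSO, 6.69 to 9.70 at 2.5 µM and 12.01 to 12.2 at 125 µM. The share of nuclear gene reads lying in introns was 6.87% ± 0.628 (SD, n = 3) in DMSO, 6.00% ± 1.52 at 2.5 µM and 5.23% ± 0.298 at 125 µM. Within the 2.5 µM group the library of replicate 1 had the highest intron share, 7.74%, against 5.33% and 4.93%. The part of the markers and of the intron share in the results was not tested. In bulk RNA, fewer cells with a transcript and less of it per cell cannot be told apart.

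Promoter windows were printed for 4 members on which the results turn: PSMB3 with the largest rise among core genes at 125 µM, PSMD14 with the largest rise in the 19S particle, PSME4 with the largest fall, and PSMB10 from the inducible set. Each is the 250 bases before the annotated start, 5′ to 3′ on the gene's strand, from RefSeq on GRCh38.p14. Capitals mark matches on either strand to TGACNNNGC (the core of the antioxidant response element), CCAAT (the CCAAT box) or GAAANNGAA (the repeat of the interferon-stimulated response element).
PSMB3, chr17:38752491-38752740, plus strand: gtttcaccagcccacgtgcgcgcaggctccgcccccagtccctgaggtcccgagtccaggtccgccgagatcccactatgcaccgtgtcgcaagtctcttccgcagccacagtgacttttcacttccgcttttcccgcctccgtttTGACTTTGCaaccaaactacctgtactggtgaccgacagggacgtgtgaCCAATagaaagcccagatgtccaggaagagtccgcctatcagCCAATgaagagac
PSMD14, chr2:161308175-161308424, plus strand: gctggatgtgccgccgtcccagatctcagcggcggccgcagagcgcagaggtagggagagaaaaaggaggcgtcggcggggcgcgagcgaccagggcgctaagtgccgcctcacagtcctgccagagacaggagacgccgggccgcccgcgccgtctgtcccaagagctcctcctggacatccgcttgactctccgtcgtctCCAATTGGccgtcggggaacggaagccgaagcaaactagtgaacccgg
PSME4, chr2:53970994-53971243, minus strand: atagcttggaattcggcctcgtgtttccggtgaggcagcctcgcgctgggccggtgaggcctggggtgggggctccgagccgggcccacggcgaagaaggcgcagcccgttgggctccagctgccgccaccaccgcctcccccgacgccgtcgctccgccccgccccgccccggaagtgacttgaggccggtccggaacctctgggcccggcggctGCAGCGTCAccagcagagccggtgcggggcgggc
PSMB10, chr16:67936851-67937100, minus strand: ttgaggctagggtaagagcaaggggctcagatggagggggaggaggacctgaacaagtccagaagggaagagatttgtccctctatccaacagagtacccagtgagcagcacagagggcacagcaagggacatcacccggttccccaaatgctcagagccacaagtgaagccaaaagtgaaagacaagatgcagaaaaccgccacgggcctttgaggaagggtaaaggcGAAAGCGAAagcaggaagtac

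The PSMB3 window held the antioxidant element core from 104 to 96 bases before the start and a CCAAT box from 55 to 51 and from 13 to 9. The PSMD14 window held overlapping CCAAT boxes on opposite strands, from 48 to 44 and 45 to 41. The PSME4 window held the antioxidant element core on the opposite strand, 34 to 26 bases before the start. The PSMB10 window held the interferon-type repeat 21 to 13 bases before the start. Of the other inducible genes PSME2 had this repeat, while PSMB8, PSMB9 and PSME1 had it at no start. PSMA4, PSMB4 and PSMG4, which are not in the inducible set, had it too. RefSeq windows were at hand for 40 of the 46 members (not for PSMA7, PSMB1, PSMB6, PSMB7, PSMD4 and PSMG3), with 49 starts. The antioxidant element core was present at 26.5% of member starts and at 10.9% of all 35116 starts, the CCAAT box at 36.7% and 32.0%, and the interferon-type repeat at 10.2% and 6.88%. Among members with a window, the antioxidant element core was found for 4 of the 12 that were higher at 125 µM (PSMB3, PSMD9, PSMG1 and PSMG2) and for 8 of the 26 that did not pass, and for PSME4, which was lower. As shares these were 33.3% and 30.8% of the genes, and no difference between them was tested. A match is a description of letters, not of a bound site.

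Most core genes rose at 125 µM, while most of the 19S particle did not pass the test and PSME4 fell. Of the 45 tested members 16 were higher and 1 was lower than in DMSO. Over all tested genes 20.3% were higher and 19.9% were lower in this comparison. The median log2 change was 0.10 over the members and 0.00 over all genes. By class, 8 of 12 core genes, 3 of 17 genes of the 19S particle, 0 of 5 inducible genes and 5 of the 11 others (assembly chaperones, inhibitor, remaining activators and PSMA8) were higher. The class medians were 0.31, -0.03, -0.05 and 0.07. The classes were compared by these counts alone, without a test between them.

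**Figure D1:**
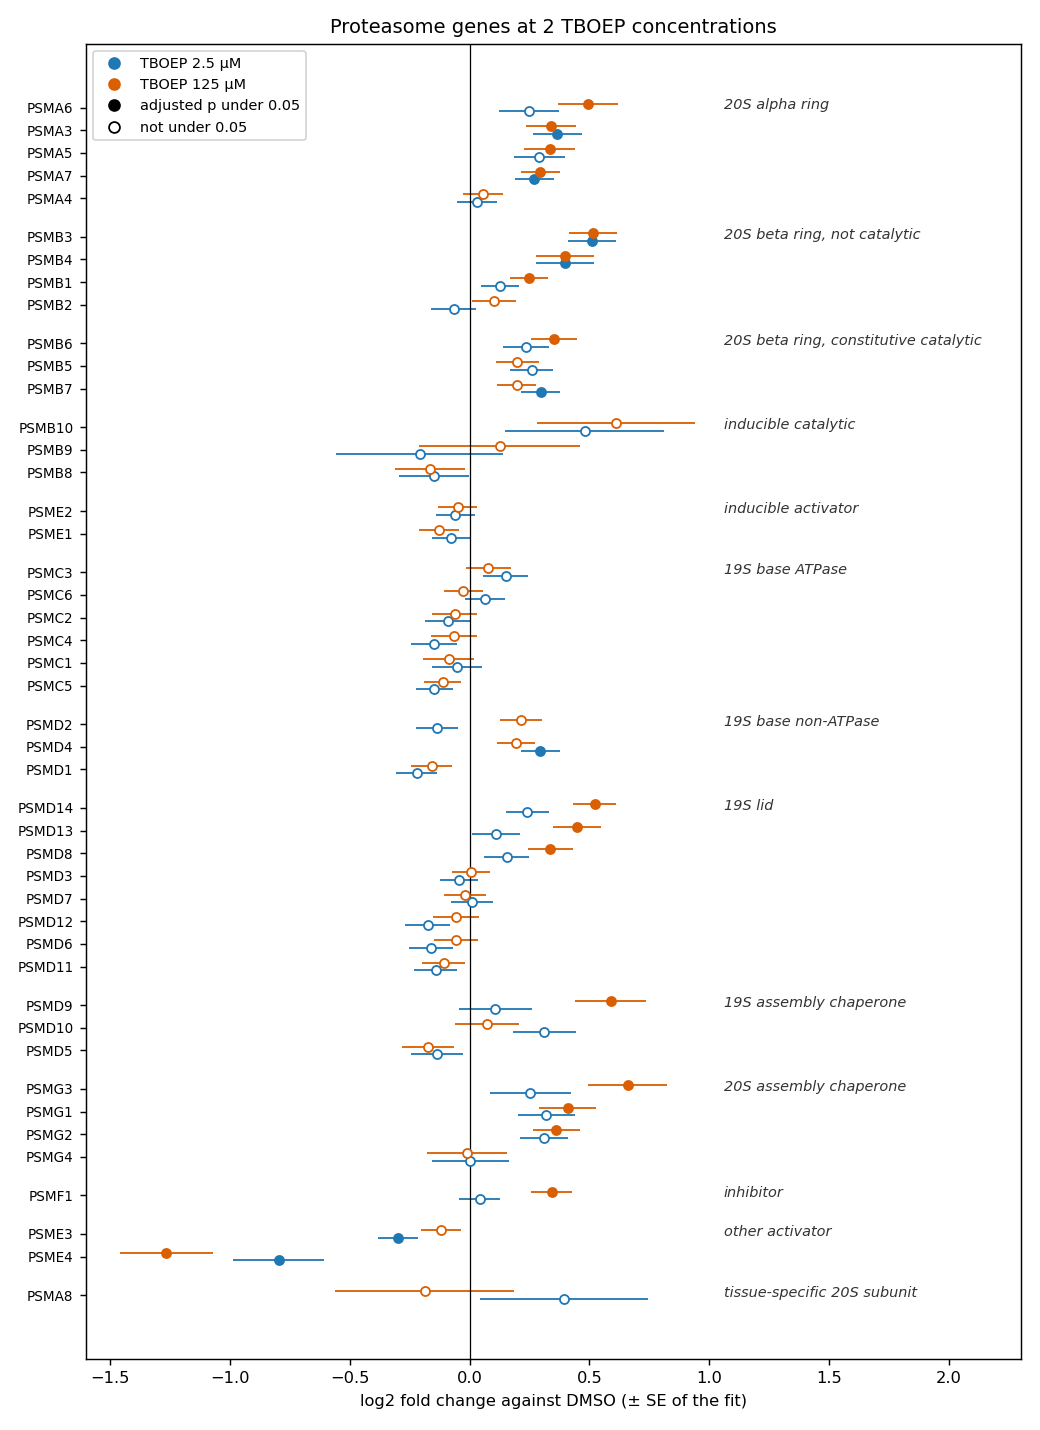
Log2 fold change against DMSO (x axis, with the standard error of the edgeR fit) of the 45 tested members (y axis) grouped by class, at 2.5 µM in blue and 125 µM in orange, filled where the adjusted p was under 0.05. All 12 core genes lie right of 0 at 125 µM, the 6 ATPases lie between -0.11 and 0.08, and PSME4 stands alone at -1.27.

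In the alpha ring, which gates the barrel, 4 of 5 genes rose at 125 µM: PSMA6 by 0.50, PSMA3 by 0.34, PSMA5 by 0.33 and PSMA7 by 0.29 on the log2 scale. PSMA6 (alpha1) had 42.1, 49.5 and 41.8 CPM in DMSO, 45.9, 59.95 and 52.1 at 2.5 µM and 56.8, 60.01 and 74.5 at 125 µM, with 125 µM above every DMSO library (1.41-fold, log2 change 0.50 ± 0.13 SE, edgeR adjusted p = 0.00595). PSMA4, the remaining alpha gene under the rule, had a log2 change of 0.06 and did not pass (adjusted p = 0.628). Of the split features outside the rule, PSMA1_2 had 28.2 to 32.9 CPM in DMSO and 26.2 to 28.3 at 125 µM (log2 change -0.15, edgeR adjusted p = 0.352). It had 70.6% of its reads in introns and overlaps COPB1 on the same strand. PSMA1_1, PSMA2_1 and PSMA2_2 had 92, 55 and 17 reads in all 9 libraries together.

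Among the beta subunits without catalytic sites, PSMB3 (beta3, chr17:36908989-36920484 in hg19) changed most. It had 64.0, 57.4 and 59.8 CPM in DMSO, 74.7, 96.6 and 88.1 at 2.5 µM and 88.6, 85.7 and 85.2 at 125 µM. Every treated library lay above every DMSO library, and the treated groups overlapped each other. The log2 change was 0.52 ± 0.10 (SE, edgeR adjusted p = 0.00104) at 125 µM and 0.51 ± 0.10 (adjusted p = 0.00948) at 2.5 µM. PSMB4 (beta7), a structural ring subunit, had 78.6, 66.9 and 77.2 CPM in DMSO, 79.5, 116.5 and 97.8 at 2.5 µM and 96.1, 98.1 and 99.8 at 125 µM. PSMB4 passed at both concentrations with a log2 change of 0.40, and its lowest 2.5 µM library lay just above the DMSO range. PSMB1 (beta6) rose by 0.25 at 125 µM, to 198 ± 4.06 CPM from 167 ± 2.66 (SD, n = 3), and PSMB2 (beta4) did not pass (log2 change 0.10).

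The constitutive catalytic subunits were among the most abundant members. PSMB5 (beta5, chymotrypsin-like activity), with 135 ± 2.76 RPKM in DMSO (SD, n = 3), was the highest of all 46 members. It had 283, 253 and 274 CPM in DMSO, 291, 356 and 323 at 2.5 µM and 304, 302 and 326 at 125 µM. No treated library fell to the DMSO range, but the log2 changes of 0.26 and 0.20 did not pass (edgeR adjusted p = 0.0747 at 2.5 µM and 0.0907 at 125 µM). PSMB6 (beta1, caspase-like activity) had 62.9, 59.8 and 68.5 CPM in DMSO, 67.2, 79.5 and 79.2 at 2.5 µM and 85.7, 81.3 and 74.9 at 125 µM. Its groups did not overlap between DMSO and 125 µM, where it rose by 0.35 ± 0.10 (SE, edgeR adjusted p = 0.00944). PSMB7 (beta2, trypsin-like activity) had 175, 164 and 174 CPM in DMSO, 197, 209 and 227 at 2.5 µM and 197, 205 and 186 at 125 µM. PSMB7 passed at 2.5 µM (log2 change 0.30, edgeR adjusted p = 0.0347) and not at 125 µM (0.20, adjusted p = 0.0723), while the direct difference between the concentrations was -0.10 (adjusted p = 0.455). Of PSMB7's reads 38.0% lay in introns.

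Taken as one sum, the 12 core genes held 0.135%, 0.135% and 0.133% of all gene reads in the DMSO libraries. They held 0.151%, 0.169% and 0.164% at 2.5 µM and 0.167%, 0.166% and 0.169% at 125 µM. Every treated library was above the DMSO range. The 17 genes of the 19S particle held 0.160% ± 0.00621 (SD, n = 3) in DMSO, 0.159% ± 0.00188 at 2.5 µM and 0.174% ± 0.00524 at 125 µM. Its 125 µM libraries (0.168% to 0.178%) also all lay above the DMSO range (0.153% to 0.165%), while its 2.5 µM libraries lay within that range. Unlike CPM, these shares were not TMM-scaled, so they also depend on the reads of all other genes. In the TMM-scaled fit the 19S genes had a median log2 change of -0.03 at 125 µM, with 3 of 17 higher. The inducible set held 0.0313%, 0.0303% and 0.0306% as group means, with overlapping ranges.

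**Figure D2:**
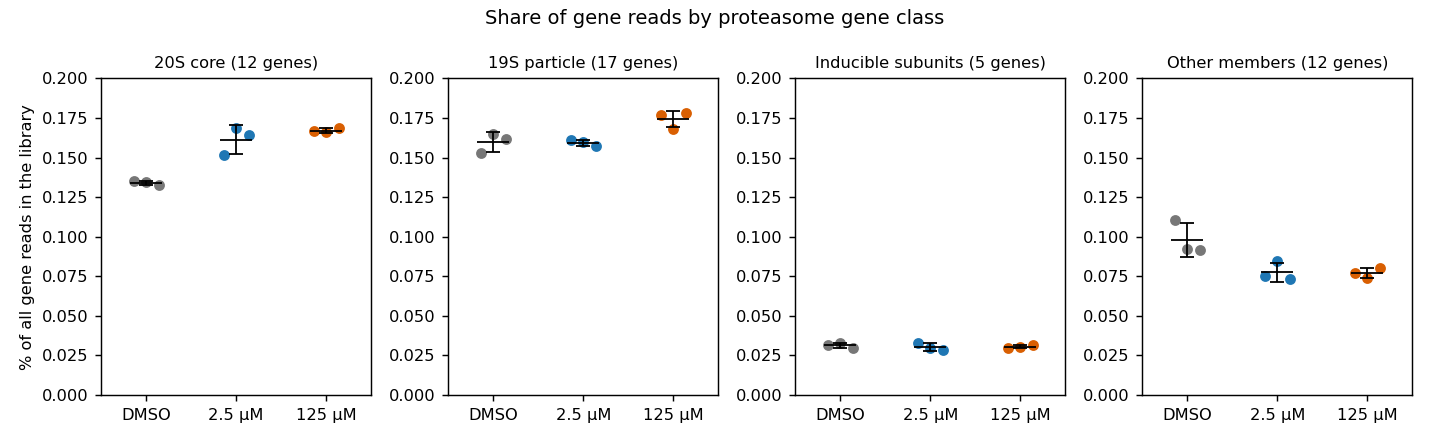
Percent of all gene reads (y axis, from 0, not TMM-scaled) taken by each class of proteasome genes in each library (points), with the group mean and SD (bars, n = 3). The core share was 0.134% ± 0.00122 in DMSO, 0.161% ± 0.00904 at 2.5 µM and 0.167% ± 0.00149 at 125 µM. The other members, which include PSME4, held 0.0981% in DMSO and 0.0770% at 125 µM. Among them PSME3 and PSME4 together fell from 0.0650% to 0.0352%, while the shares of the inhibitor and of the assembly chaperones rose.

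At 2.5 µM 5 of the 12 core genes were higher and 7 did not pass. Over all members 6 were higher and 2 lower than in DMSO, against 6.02% higher and 5.03% lower over all tested genes. The core genes called were PSMB3 (log2 change 0.51), PSMB4 (0.40), PSMA3 (0.37), PSMB7 (0.30) and PSMA7 (0.27). PSMA3 (alpha7) had 60.9, 54.4 and 58.5 CPM in DMSO, 63.8, 81.1 and 81.6 at 2.5 µM and 73.8, 72.3 and 74.9 at 125 µM, and its replicate 1 at 2.5 µM lay nearest to DMSO. PSMD4 (Rpn10, a ubiquitin receptor of the 19S base) was the sixth, with 91.0, 95.2 and 101 CPM in DMSO, 114, 118 and 119 at 2.5 µM and 108, 113 and 105 at 125 µM (log2 change at 2.5 µM 0.30, edgeR adjusted p = 0.0304). The 2 lower members were PSME4 and PSME3. In the 2.5 µM group replicate 1, the library with the high intron share, had the lowest value of the group for 11 of the 12 core genes. In DMSO the order was different. There replicate 1 had the highest intron share, 7.24% against 7.22% and 6.14%, but the highest value for 9 of the 12 core genes and the lowest for 0. Without 2.5 µM replicate 1, 7 core genes were called higher at 2.5 µM. Without replicate 2 or replicate 3 of the 2.5 µM group, or without any 1 DMSO library, 1 was. Over all tested genes 776 were higher at 2.5 µM with every library kept. Without replicate 1, 2 or 3 of 2.5 µM the number was 860, 615 and 323. Without DMSO replicate 1, 2 or 3 it was 174, 1005 and 411. Of the calls at 2.5 µM that of PSMB3 alone was kept under all 17 alternatives. The core count at 125 µM ranged from 6 to 8 when any 1 library was left out.

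Between the concentrations no core gene passed. In the direct comparison of 125 with 2.5 µM, edgeR called 0 of 12 core genes, 0 had an unadjusted p under 0.05, and DESeq2 and limma on RPKM called 0. The 12 log2 differences ran from -0.10 to 0.25, with 95% intervals from -0.28 to 0.51, so differences of that size could not be told from 0. Of all members 5 were higher at 125 than at 2.5 µM, against 7.48% of all tested genes. None was lower, against 7.44% of all tested genes; 1 member, PSME4, was lower at an unadjusted p under 0.05, and DESeq2 and limma called 0. The comparisons with DMSO share the DMSO libraries and are therefore given side by side only.

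The 5 members that were higher at 125 than at 2.5 µM all lay outside the core: PSMD2, PSMD13, PSMD14, PSMD9 and PSMF1. PSMD14 (Rpn11, chr2:162164549-162268228 in hg19), the lid's deubiquitinase with 23.9% of its reads in introns, had 91.6, 103 and 95.4 CPM in DMSO, 104, 118 and 123 at 2.5 µM and 133, 140 and 144 at 125 µM. The 3 groups did not overlap, and the log2 change was 0.52 ± 0.09 (SE, edgeR adjusted p = 0.000387) at 125 µM, 0.24 (adjusted p = 0.0924) at 2.5 µM and 0.28 (adjusted p = 0.0452) between the concentrations. PSMD13 (Rpn9, a lid subunit) had 57.7, 55.0 and 54.4 CPM in DMSO, 58.3, 65.0 and 55.7 at 2.5 µM and 73.2, 70.6 and 88.1 at 125 µM. Only the 125 µM libraries of PSMD13 stood apart (0.45 ± 0.10 against DMSO, edgeR adjusted p = 0.00259, and 0.34 against 2.5 µM, adjusted p = 0.0322). PSMD8 (Rpn12), the third lid gene to rise at 125 µM, had 98.4 ± 10.3 CPM in DMSO and 123 ± 5.16 at 125 µM (SD, n = 3, log2 change 0.34).

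PSMD2 (Rpn1), a large base subunit that docks shuttle factors, had 174, 165 and 172 CPM in DMSO, 151, 161 and 153 at 2.5 µM and 218, 181 and 194 at 125 µM. Its 2.5 µM libraries lay below and its 125 µM libraries above the DMSO range, and the difference between the concentrations was 0.35 ± 0.09 (SE, edgeR adjusted p = 0.0142), while neither change against DMSO passed (-0.14 and 0.21). The file places PSMD2 inside the span of EIF2B5 on the same strand. The number of members called higher between the concentrations fell from 5 to 0, 2 and 1 without replicate 1, 2 or 3 of 125 µM, to 1, 2 and 3 without replicate 1, 2 or 3 of 2.5 µM, and to 3 with exon reads alone. Over all tested genes the number went from 965 to 557, 445 and 662, then to 646, 525 and 978, and to 952 with exon reads alone.

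The ATPases, PSMD1 and the other 5 lid genes did not pass in any of the comparisons. The 6 ATPases PSMC1, PSMC2, PSMC3, PSMC4, PSMC5 and PSMC6 had log2 changes of -0.11 to 0.08 at 125 µM and -0.15 to 0.15 at 2.5 µM. For the ATPases edgeR called 0, 0 had an unadjusted p under 0.05 in any comparison, and DESeq2 and limma called 0, with 95% intervals at 125 µM from -0.31 to 0.28. EdgeR called 20.3% of all tested genes higher and 19.9% lower at 125 µM, and 6.02% and 5.03% at 2.5 µM. Between the concentrations it called 7.48% and 7.44%, so for 6 genes a count of 0 is near the shares in the last 2 comparisons. An example is PSMC5 (Rpt6), with 105 ± 1.88 CPM in DMSO, 94.4 ± 1.94 at 2.5 µM and 96.9 ± 4.40 at 125 µM (SD, n = 3), a log2 change of -0.11 at 125 µM. The large base subunit PSMD1 (Rpn2) had changes of -0.16 at 125 µM and -0.22 at 2.5 µM. The lid genes PSMD3, PSMD6, PSMD7, PSMD11 and PSMD12 had changes of 0.01, -0.06, -0.02, -0.11 and -0.06 at 125 µM.

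**Figure D3:**
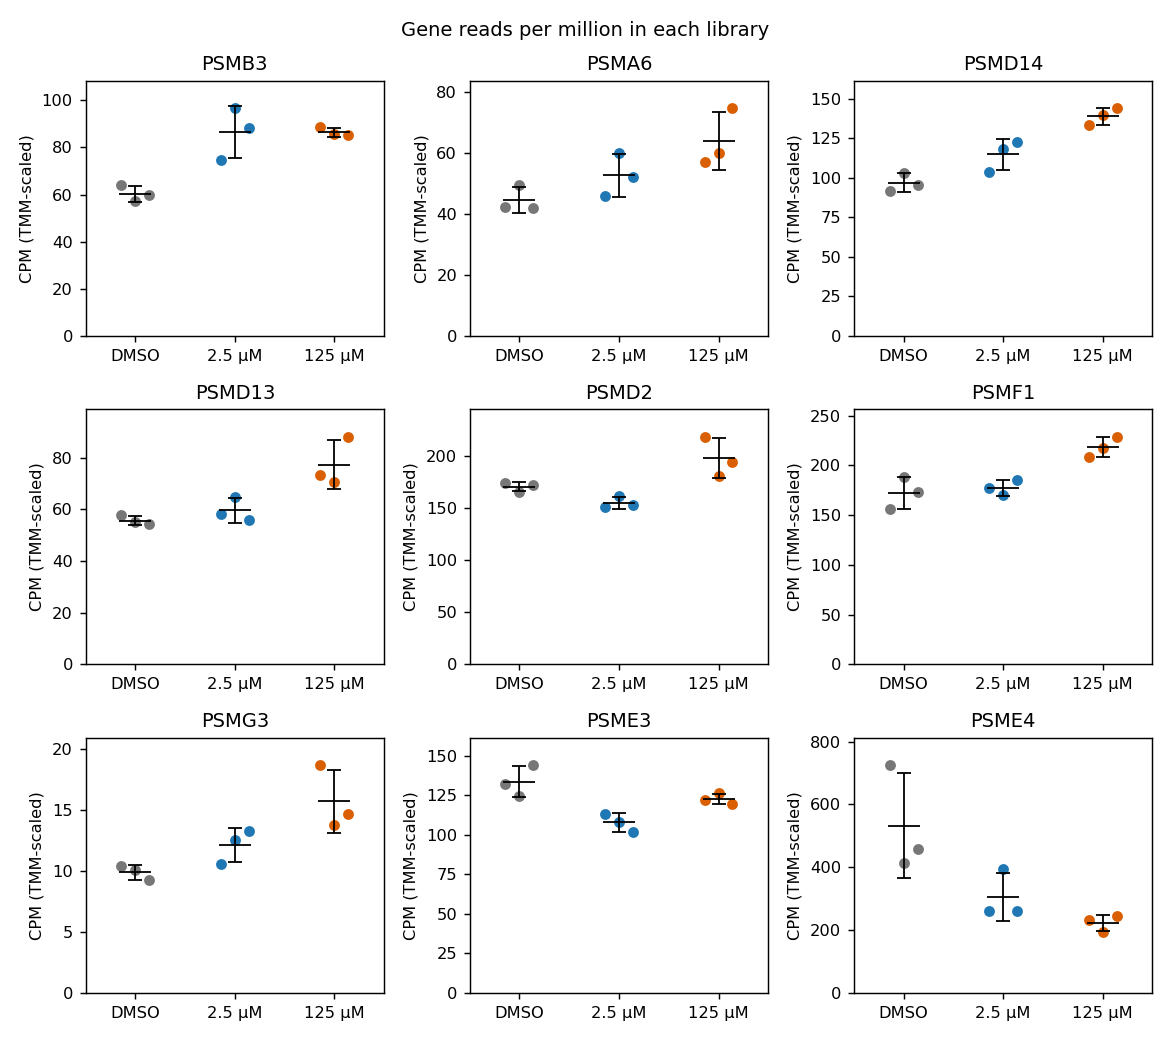
TMM-scaled CPM (y axes, from 0) of 9 members in each library (points) with the group mean and SD (bars, n = 3) for DMSO, 2.5 µM and 125 µM TBOEP. PSMB3 is as high at 2.5 as at 125 µM, PSMD13, PSMD2 and PSMF1 stand highest at 125 µM, and the DMSO library of replicate 1 has the highest PSME4 level, 725 CPM.

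The chaperones that assemble the core rose with it at 125 µM, except PSMG4. PSMG1 and PSMG2, which form a pair that starts the alpha ring, rose by 0.41 and 0.36 on the log2 scale. PSMG3, which pairs with PSMG4, had 10.4, 10.1 and 9.24 CPM in DMSO, 10.6, 12.5 and 13.3 at 2.5 µM and 18.7, 13.8 and 14.7 at 125 µM, the largest rise of any member (1.58-fold, log2 change 0.66 ± 0.16 SE, edgeR adjusted p = 0.00533). PSMG4 did not pass (log2 change -0.01), with 30.0% of its reads in introns. At 2.5 µM edgeR called 0 of the 4, against 6.02% higher and 5.03% lower over all tested genes. At that concentration 2 had an unadjusted p under 0.05, and DESeq2 and limma on RPKM called 0.

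Of the chaperones of the 19S base, PSMD9 (p27) rose. It had 8.70, 9.89 and 10.5 CPM in DMSO, 10.3, 10.3 and 10.1 at 2.5 µM and 15.5, 13.5 and 13.95 at 125 µM, where all 3 libraries lay above both other groups (log2 change 0.59 ± 0.15 SE, edgeR adjusted p = 0.00564, and 0.48 against 2.5 µM, adjusted p = 0.0357). PSMD5 (S5b) and PSMD10 (gankyrin) did not pass in any comparison, with -0.17 and 0.07 at 125 µM.

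PSMF1 (PI31), which inhibits the isolated core in the test tube, rose at 125 µM. It had 156, 188 and 173 CPM in DMSO, 177, 170 and 185 at 2.5 µM and 209, 218 and 229 at 125 µM, with the highest concentration above both other groups. The log2 change was 0.34 ± 0.09 (SE, edgeR adjusted p = 0.00618) against DMSO and 0.30 ± 0.09 (adjusted p = 0.0318) against 2.5 µM.

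PSME4 (PA200), an ATP-independent cap best known for histone turnover in the testis and after DNA damage, fell. PSME4 lies on the minus strand at chr2:54091204-54197977 (hg19) and was the fifth highest member by RPKM in DMSO. It had 725, 415 and 459 CPM in DMSO, 262, 394 and 262 at 2.5 µM and 231, 194 and 245 at 125 µM. The 3 groups did not overlap, and the DMSO library of replicate 1 was far above the other DMSO libraries. At 125 µM the level was 2.40-fold lower (log2 change -1.27 ± 0.19 SE, edgeR adjusted p = 0.00017), and -0.98 without DMSO replicate 1 (adjusted p = 0.000349). At 2.5 µM the change was -0.80 ± 0.19 (edgeR adjusted p = 0.0191). That call was lost without DMSO replicate 1 (-0.51, edgeR adjusted p = 0.102), without 2.5 µM replicate 3 (-0.70, adjusted p = 0.0739) and in limma on RPKM (adjusted p = 0.0992). The difference between the concentrations, -0.47, did not pass (edgeR adjusted p = 0.116), but did without DMSO replicate 1 (-0.47, adjusted p = 0.0301). With exon reads alone the change at 125 µM was -1.32, and 4.13% of the gene's reads were in introns.

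PSME3 (PA28 gamma), the nuclear activator, had 132, 124 and 144 CPM in DMSO, 113, 108 and 102 at 2.5 µM and 122, 126 and 120 at 125 µM. PSME3 was lower at 2.5 µM, where the groups did not overlap (log2 change -0.30 ± 0.08 SE, edgeR adjusted p = 0.0344), and not at 125 µM (-0.12, adjusted p = 0.278). The difference between the concentrations, 0.18, did not pass (edgeR adjusted p = 0.161). Its call at 2.5 µM was lost under 9 of 17 alternatives, among them limma on RPKM and leaving out DMSO replicate 1 or 3, or 2.5 µM replicate 2 or 3. PSME3 overlaps BECN1, which lies on the opposite strand.

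The inducible genes did not pass at either concentration. For the 5 of them (PSMB8, PSMB9, PSMB10, PSME1 and PSME2) edgeR called 0 in each comparison, 0 had an unadjusted p under 0.05, DESeq2 called 0, and limma on RPKM called 1, PSMB9 at 125 µM. Over all tested genes edgeR called 20.3% higher and 19.9% lower at 125 µM, and 6.02% and 5.03% at 2.5 µM. Between the concentrations the shares were 7.48% and 7.44%. For 5 genes a count of 0 is near such shares at 2.5 µM and between the concentrations. PSME1 and PSME2, which make up the interferon-induced activator PA28, were abundant: PSME1 was the second highest member by RPKM. PSME1 had 185, 174 and 164 CPM in DMSO, 173, 167 and 155 at 2.5 µM and 152, 159 and 169 at 125 µM, and PSME2 had 129, 129 and 117, then 126, 121 and 111, then 121, 122 and 119. In both genes the groups overlapped, and the 95% interval of the change at 125 µM was -0.31 to 0.05 for PSME1 and -0.22 to 0.12 for PSME2.

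The catalytic subunits of the immunoproteasome were scarce. PSMB8 (LMP7, beta5i) had 17.6, 12.9 and 17.7 CPM in DMSO, 14.5, 15.0 and 13.7 at 2.5 µM and 13.8, 14.5 and 15.1 at 125 µM (log2 change -0.17 at 125 µM, edgeR adjusted p = 0.388). PSMB9 (LMP2, beta1i) had 1.68, 1.39 and 1.54 CPM in DMSO, 1.53, 1.21 and 1.21 at 2.5 µM and 1.58, 1.99 and 1.10 at 125 µM, from 101 reads in all 9 libraries, 33.7% of them in introns. PSMB9 overlaps TAP1 and PSMB8, which lie on the opposite strand and had far more reads. PSMB10 (MECL-1, beta2i) had 2.10, 1.98 and 4.62 CPM in DMSO, 4.49, 2.88 and 4.04 at 2.5 µM and 3.398, 4.40 and 4.77 at 125 µM (log2 change 0.61, 95% interval -0.09 to 1.31 at 125 µM). DMSO replicate 3 was well above the other DMSO libraries for PSMB10, and without it the gene passed at 125 µM (log2 change 1.00, edgeR adjusted p = 0.0305).

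Each inducible subunit takes the place of 1 constitutive subunit, so their RPKM were compared in pairs. PSMB8 reached 5.51% ± 0.531 of PSMB5 in DMSO (SD, n = 3), 4.07% ± 0.495 at 2.5 µM and 4.26% ± 0.144 at 125 µM. All treated libraries lay below the DMSO range of 4.91% to 5.93%. The mean log2 ratio was 0.37 lower at 125 µM and 0.44 lower at 2.5 µM, each with an exact 2-sided permutation p = 0.1. That is the smallest p that 3 against 3 libraries allow, and it adjusts to 0.3 over the 9 ratio tests. PSMB9 reached 0.479% ± 0.131 of PSMB6 in DMSO, 0.628% ± 0.218 at 2.5 µM and 0.769% ± 0.114 at 125 µM (n = 3), where single libraries held 3 to 24 PSMB9 gene reads, introns included. The log2 difference of 0.71 at 125 µM (exact permutation p = 0.1, adjusted 0.3) shrank to 0.005 with 0.5 added to each RPKM. That constant exceeds the PSMB9 RPKM of every DMSO library (0.159 to 0.260), so it flattens the ratio in any case and decides nothing. PSMB10 reached 3.30% ± 1.496 of PSMB7 in DMSO, 3.30% ± 0.928 at 2.5 µM and 3.796% ± 0.727 at 125 µM, with overlapping ranges.

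**Figure D4:**
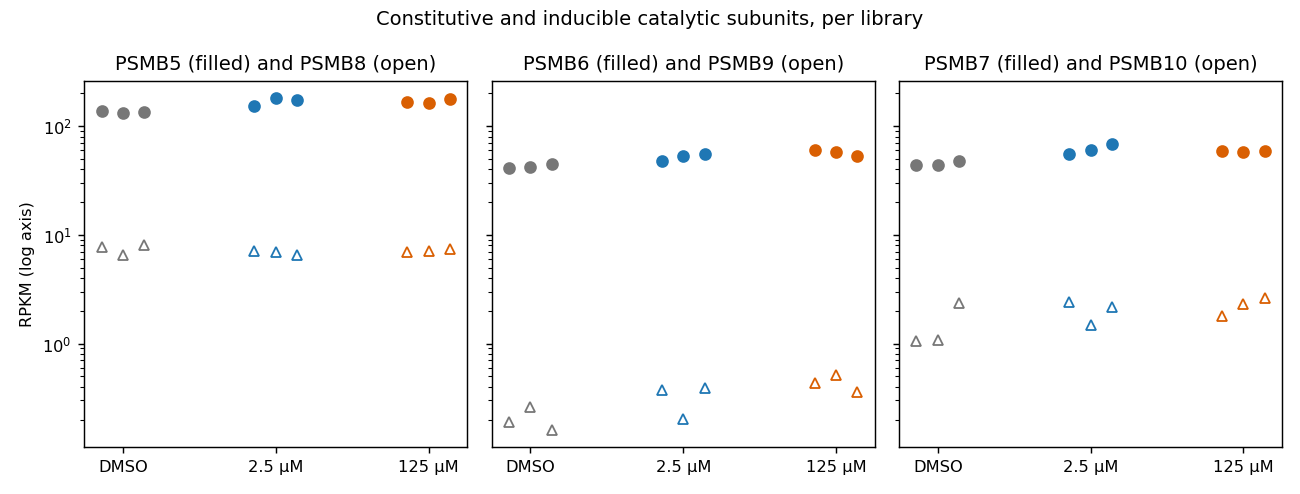
RPKM on a log axis of each constitutive catalytic subunit (filled circles) and the inducible subunit that replaces it (open triangles) in every library of DMSO, 2.5 µM and 125 µM TBOEP. PSMB5 sits between 132 and 182 RPKM and PSMB8 between 6.47 and 8.05, and PSMB9 stays under 0.514.

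The tissue-specific subunits were not detected as spliced transcripts. PSMA8, an alpha subunit of the testis, had 117 reads in all, 100% of them in introns, and an RPKM of 0 in each library. PSMB11, the beta subunit of the thymus, had no read, which allows up to 3 reads, or 0.252 CPM in the deepest library and 1.21 CPM in the shallowest (counting error only).

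Levels in DMSO were uneven across subunits that sit in the complex in equal numbers. Median RPKM was 18.96 for the 5 alpha genes, 40.1 for the 4 beta genes without catalytic sites, 44.9 for the 3 constitutive catalytic genes, 18.4 for the ATPases and 14.4 for the lid genes. Within the alpha ring PSMA7 had 88.2 RPKM and PSMA5 had 13.1, and within the lid PSMD7 had 32.8 and PSMD6 had 6.01. RPKM divides by the summed length of all annotated exons, which is longer than any 1 transcript and differs between genes.

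Core genes are short, and the length of a gene moved with its change. Exon length had a median of 2207 bases in the core and 4483 in the 19S particle. Over all tested genes with exons the median log2 change at 125 µM was 0.10 in the shortest quartile of exon length (207 to 2915 bases) and -0.07 in the longest (6882 to 45649 bases). In that shortest quartile 25.9% of all genes were higher, as were 6 of 9 core genes, 0 of 3 genes of the 19S particle and 0 of 3 inducible genes. In the other quartiles 2 of 3 core genes and 3 of 14 genes of the 19S particle were higher. Spearman's rho of log2 change with exon length was -0.26 over the 45 members at 125 µM, -0.53 at 2.5 µM and 0.20 between the concentrations, as a description across genes of the same libraries. The corresponding values over all 12678 tested genes with exons were -0.11, -0.16 and -0.02. PSME4, with 10259 bases of exon, is among the longest members, and so are PSMD14 (7698) and PSMD9 (8778), which rose. The part of length in the results was not tested.

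**Figure D5:**
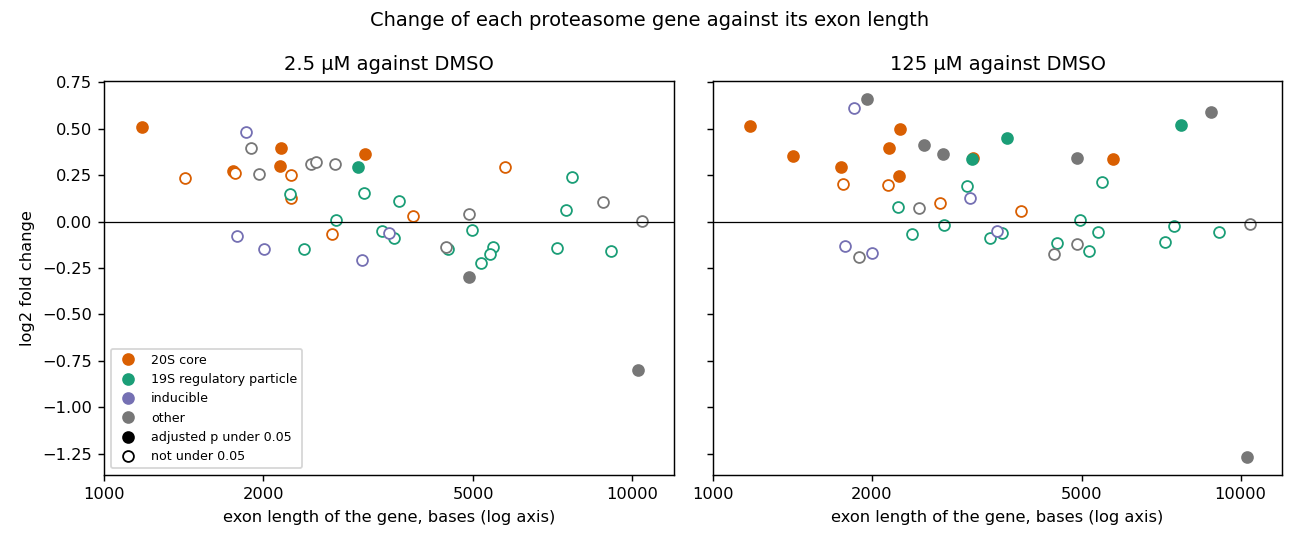
Log2 fold change of the 45 tested members (y axis) against their exon length on a log axis (x axis, bases), at 2.5 µM (left) and 125 µM (right), coloured by class and filled where the adjusted p was under 0.05. Core genes lie above 0 from the shortest, PSMB3 with 1179 bases, to PSMA5 with 5737 bases at 125 µM, and PSME4 lies at the lower right.

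Of the tested members 20 overlap another tested gene in the files, and the sources used here do not state whether counting used the strand, so reads in shared bases are uncertain. Among the genes called at 125 µM these are PSMA3, PSMA6, PSMD13, PSMD9, PSMG2, PSMG3 and PSME4, whose shared stretch with ACYP2 is 3 bases. The largest overlapping counts among them were those of CEP76, with 32.8% as many reads as PSMG2, and of KIAA0391_2, with 26.5% as many as PSMA6. Larger ones occurred among members not called at 125 µM. PSMB9, with 101 reads, shares 8770 bases with TAP1 (1250 reads) and 568 with PSMB8 (979 reads). PSMG4, with 1433 reads, shares 34412 bases with SLC22A23 (4761 reads). The levels of PSMB9 and PSMG4 are therefore the least certain in this respect. Proteasome genes also have processed pseudogenes, and reads common to both copies cannot be placed.

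Genes that work with the proteasome were read from gene lists. Of 11 partners outside the name rule 3 rose at 125 µM and 0 fell, against 20.3% higher and 19.9% lower over all tested genes, with a list median of 0.02. POMP, the chaperone that completes core assembly, had 41.6, 40.2 and 38.2 CPM in DMSO, 47.1, 51.3 and 49.7 at 2.5 µM and 53.4, 51.3 and 54.7 at 125 µM, all treated libraries being above DMSO (log2 change 0.40, edgeR adjusted p = 0.0027 at 125 µM and 0.30, adjusted p = 0.0456 at 2.5 µM). USP14, a deubiquitinase bound to the base, rose by 0.44 (adjusted p = 0.00608), and PAAF1, a chaperone of the 19S particle, by 0.74 (adjusted p = 0.00569).

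Of 13 genes of the NFE2L1 route to proteasome genes 1 was higher and 3 were lower at 125 µM, against 20.3% and 19.9% over all tested genes, with a list median of -0.10. NFE2L1 itself had 490, 498 and 506 CPM in DMSO, 491, 538 and 562 at 2.5 µM and 508, 535 and 504 at 125 µM (log2 change 0.05, edgeR adjusted p = 0.641). Its relative NFE2L2 (NRF2) had 194, 203 and 201 CPM in DMSO, 209, 252 and 242 at 2.5 µM and 196, 193 and 207 at 125 µM (log2 change -0.01, edgeR adjusted p = 0.972). NGLY1, the glycanase that helps to activate NFE2L1, rose by 0.41 at 125 µM (edgeR adjusted p = 0.00107) and 0.38 at 2.5 µM (adjusted p = 0.0118). OGT, the O-GlcNAc transferase, had 456, 332 and 350 CPM in DMSO, 239, 252 and 177 at 2.5 µM and 187, 166 and 167 at 125 µM. OGT fell by 1.13 at 125 µM (edgeR adjusted p = 2.87e-05), and its partner HCFC1 fell by 0.54 (adjusted p = 0.000528). UFD1L, part of the VCP adaptor, fell by 0.27 (edgeR adjusted p = 0.043). The activity of these factors was not measured.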

How the data were processed

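Total gene reads were the deposited counts per gene, made by the authors with CLC Genomics Workbench on UCSC hg19, per the labels (no source used here states the software version or whether counting used the strand). RPKM values were likewise the authors' own, per the file headers. A quantile-normalised signal that the authors deposited entered no test. Counts of the 9 libraries were filtered with filterByExpr, TMM-scaled and tested with edgeR 4.0.16 (R 4.3.3) in 3 contrasts, adjusted over 12901 genes. RPKM was tested as log2(RPKM + 0.5) with limma 3.58.1, and fold changes on that scale understate low genes. DESeq2 1.42.0, other scaling, filters, read types and leaving out each library were alternatives. Subunit ratios were compared by exact permutation. The fit was tested on simulated data. Feature starts were raised by 1 base to count from 1. Members and gene lists were chosen with earlier results of these data known. Named were all members, with every library's value for the catalytic and activator genes, PSMF1 and the 4 largest called changes in each direction and comparison, and up to 4 called genes per related list. Some members were also shown by library after their values were seen (PSMA6, PSMD4). Some genes of the related lists are not reported here.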

Additional observations from a re-analysis of the deposited data

How the results depend on the processing

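No member changed direction among its calls in any of the 17 alternatives. Of the 17 calls at 125 µM against DMSO, 11 held in all of them, as did 1 of 8 at 2.5 µM (PSMB3) and 0 of 5 between the concentrations. The 16 members higher at 125 µM became 15 without the filter, 17 with exon reads, 19 with upper-quartile scaling, 21 in limma on RPKM and 12 to 16 with 1 library left out. The 1 lower member stayed 1 throughout. The 6 higher at 2.5 µM ranged from 1 to 10 with 1 library left out, and the 2 lower from 0 to 2, with 0 in limma on RPKM. Over all genes the calls at 2.5 µM ranged from 174 to 1005 higher and from 39 to 1045 lower with 1 library left out. Between the concentrations the 5 higher became 3 without the filter, 3 with exon reads, 2 in DESeq2, 2 in limma and 0 to 5 with 1 library left out. The 0 lower became 1 without the filter and 0 to 1 with 1 library left out, the 1 arising without DMSO replicate 1. In limma on RPKM the split of all genes called moved to 2811 higher and 1413 lower at 125 µM (2618 and 2562 in edgeR), 171 and 45 at 2.5 µM (776 and 649) and 666 and 302 between the concentrations (965 and 960). The cause of these shifts was not tested.

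Same-numbered libraries of different groups had deviations that correlated at -0.241 to 0.184 over 9 pairs, and differently numbered ones at -0.268 to 0.268 over 18, so the replicate numbers were not used as pairs. With a replicate block 2 members were higher and 1 lower at 2.5 µM, and 3 were higher between the concentrations. Depth limited the scarce genes most: PSMB9 had 3 reads in the shallowest libraries.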

Other observations

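Genes of MHC class I antigen processing, which use the peptides that the proteasome makes, fell or did not pass at 125 µM. Of 15 genes 7 were lower and 0 were higher than in DMSO (edgeR adjusted p under 0.05), against 19.9% lower and 20.3% higher over all tested genes, with a list median of -0.28 on the log2 scale against 0.00 over all genes. TAPBP (tapasin), which loads peptides, had 136, 92.0 and 125 CPM in DMSO, 80.8, 81.1 and 72.3 at 2.5 µM and 72.0, 70.0 and 77.5 at 125 µM, all treated libraries lying below DMSO (log2 change -0.70, adjusted p = 0.000444). NLRC5, an activator of MHC class I genes, had 7.02, 7.12 and 10.8 CPM in DMSO and 4.00, 2.16 and 2.20 at 125 µM (log2 change -1.49, adjusted p = 0.00186). PDIA3, a chaperone of the loading complex, changed by -0.40 (adjusted p = 0.00199) and HLA-C by -0.28 (adjusted p = 0.0223). B2M, the shared light chain, had a change of 0.00 and did not pass.

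Genes of interferon signalling changed in both directions at 125 µM. IRF2, a factor that binds interferon response elements, had 63.8, 48.3 and 62.3 CPM in DMSO, 44.7, 41.5 and 37.6 at 2.5 µM and 32.3, 29.7 and 29.0 at 125 µM, with no overlap between groups (log2 change -0.94, edgeR adjusted p = 4.11e-05). IFNGR2, a chain of the interferon gamma receptor, changed by -0.67 (adjusted p = 0.000302), while ISG15, a ubiquitin-like protein, was higher by 0.60 (adjusted p = 0.0114).

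Shuttle factors bring substrates to the proteasome. SQSTM1 (p62), which carries ubiquitinated cargo, had 277, 277 and 235 CPM in DMSO, 218, 225 and 217 at 2.5 µM and 384, 352 and 428 at 125 µM. Its 2.5 µM libraries lay below and its 125 µM libraries above DMSO (log2 change -0.26, edgeR adjusted p = 0.0845, and 0.55, adjusted p = 0.000344), and the concentrations differed by 0.81 (adjusted p = 8.36e-05). UBQLN2 changed by 0.36 at 125 µM (edgeR adjusted p = 0.0278) and NBR1, an autophagy receptor, by -0.28 (adjusted p = 0.0158). Of the blood and immune cell markers 3 of 10 passed the filter on low counts, and CD68, a lysosomal protein of macrophages also made by other cells, was higher at 125 µM (1.77, adjusted p = 0.0017).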
